A study of Zea mays with 6 samples.

Results

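The transcripts described here come from the mitochondrial (Mt) and plastid (Pt) genomes of maize (Zea mays), measured by RNA sequencing of pooled whole kernels at 15 days after pollination. Every row of the deposited tables placed on Mt or Pt was taken that was above 0 FPKM (fragments mapped to a locus, relative to its length and to all mapped fragments) in at least 2 of the 5 libraries used. This gave 100 loci of 45736 in all, 53 mitochondrial and 47 plastid. Kernels of the mutant dek42, titled dek42-ref in the labels, gave 3 libraries (replicates 1, 2 and 3), and wild-type kernels gave 2 (replicates 1 and 3), with wild-type replicate 2 not analysed here. Both groups share the species, tissue and age, and no treatment, inbred background or number of kernels per pool is stated in the labels. dek42 is a defective kernel mutant, and its gene, Dek42, codes for a protein that binds RNA and takes part in splicing of nuclear pre-mRNA. Whether the replicates are pools from different ears or plants is not stated, so p-values measure only the spread between these libraries, which may be technical. The Dek42 locus itself and markers of kernel tissues were not analysed here, because nuclear rows carry positions and no names.

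Plant mitochondria keep a small genome for subunits of the respiratory chain and the ATP synthase, for proteins that mature cytochrome c, and for part of their own ribosome, beside many open reading frames of unknown role. Plastids keep genes for photosynthesis, for a plastid RNA polymerase and for part of the plastid ribosome, and in kernels they are mainly starch-forming plastids that do little photosynthesis. Organelle transcripts usually end without the long poly(A) tails of nuclear mRNA, so the way RNA is selected for a library bears strongly on how much of them is seen. The labels give total RNA as the molecule and the series description speaks of mRNA, and neither states the selection step.

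Rows are named in the files by chromosome, start and end alone. With starts counted from 1, 97 of the 144 mitochondrial rows and 27 of the 74 plastid rows had exactly the span of a gene in RefSeq's table (assembly Zm-B73-REFERENCE-NAM-5.0). A start moved by 1 base in either direction matched none. No nuclear or contig row out of 45518 matched, so the names used below hold for the organelle sequences only. Positions are those of the deposited rows with 1 added to each start, and B73 RefGen_v4 is the build named in the submitters' processing notes. Of the 53 mitochondrial loci, 28 had the span of a gene, 22 held 1 or more whole genes, 1 overlapped a gene in part and 2 touched none. Of the 47 plastid loci, 21 had the span of a gene, 23 held whole genes and 3 lay inside a gene. Among the 214 annotated mitochondrial and 158 annotated plastid genes, 61 and 43 were touched by no row used here. They include the mitochondrial atp1, atp6, atp9, cox1, nad1 and ribosomal RNA genes and the plastid psaA, psaB, psbA and atpA, which were therefore not analysed here.

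Both genomes gave little signal. Members together held 0.00993%, 0.0146% and 0.0122% of summed FPKM on Mt in dek42 replicates 1, 2 and 3, against 0.00419% and 0.00343% in wild-type replicates 1 and 3. The plastid members held 0.00806%, 0.00634% and 0.00734% in dek42, against 0.00411% and 0.00519% in wild type. The mean over all libraries was under 1 FPKM for 29 mitochondrial and 31 plastid loci, and the best placed locus of each genome ranked 3520 and 5133 of the 20327 loci tested in the whole table. The number of reads per library is unknown, and a locus listed at 0 FPKM is reported as listed at 0, since an exact 0 can be a failed estimate.

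More loci of both genomes were listed above 0 in dek42 kernels. Of the 53 mitochondrial loci, 51, 49 and 49 were above 0 in dek42 replicates 1, 2 and 3, against 23 and 36 in wild-type replicates 1 and 3. Of the 47 plastid loci, 41, 41 and 45 were above 0 in dek42 and 30 and 38 in wild type. The same share over the other 28700 loci chosen by the same rule was 94.0%, 95.8% and 95.2% in dek42 and 83.1% and 89.7% in wild type, so both wild-type libraries also listed fewer loci there. The rule itself counts 3 dek42 libraries and 2 wild-type libraries. No locus of either genome was at 0 in all dek42 libraries, while 14 mitochondrial and 4 plastid loci were at 0 in both wild-type libraries (7.7% of all 28800 loci so chosen). The bar chart of loci above 0 FPKM shows wild-type replicate 1 as the library with the fewest organelle loci.

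**Figure D1:**
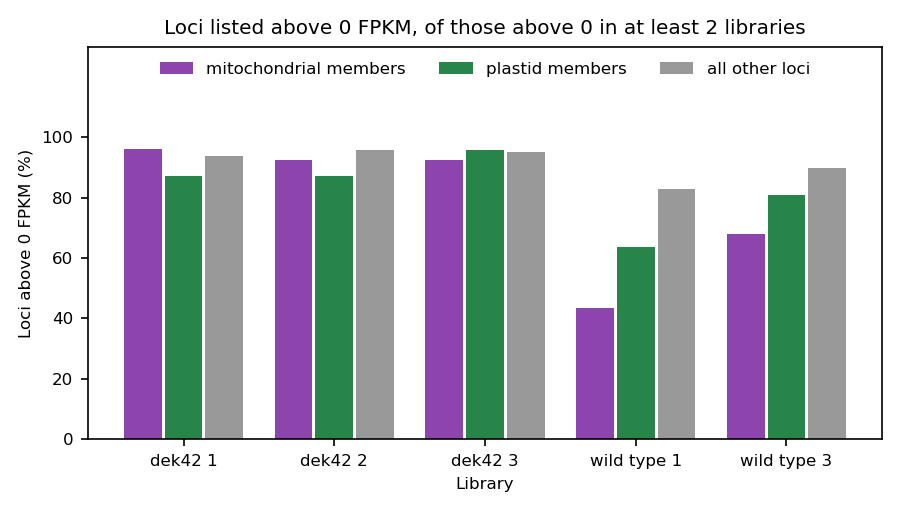
Share of loci listed above 0 FPKM (vertical axis, %) in each of the 5 libraries (horizontal axis), for the 53 mitochondrial loci, the 47 plastid loci and the 28700 other loci that were above 0 in at least 2 libraries. The mitochondrial bar falls to 43.4% in wild-type replicate 1 and 67.9% in wild-type replicate 3, and is at least 92.5% in each dek42 library.

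Summed over its 53 loci, the mitochondrial genome had 145, 215 and 153 FPKM in dek42 replicates 1, 2 and 3, against 54.6 and 38.5 FPKM in wild-type replicates 1 and 3. Every dek42 library lay above both wild-type libraries, at 171 ± 38.0 FPKM in dek42 (SD, n = 3) and 46.6 ± 11.4 FPKM in wild type (SD, n = 2), a ratio of 3.67. An exact permutation test, two-sided, gave p = 0.1, which 3 libraries against 2 cannot go below. FPKM is a share of all mapped fragments, and over the whole table most loci were higher in dek42. Sums were therefore repeated with each library scaled so that the typical locus has the same level in every library (median-ratio scaling, by the median of each locus's value over its geometric mean). On that scale the mitochondrial sums were 129, 169 and 125 in dek42 and 69.2 and 50.7 in wild type, still without overlap, with a ratio of means of 2.35 (exact permutation p of 0.1). Sums on both scales take in 14 loci at 0 in both wild-type libraries, which were chosen through dek42 alone and can only add to dek42. Over the 20 loci above 0 in every library, the deposited means were 121 FPKM in dek42 and 41.3 FPKM in wild type, a ratio of 2.93 (exact permutation p of 0.1). In a sum over pooled kernels, more organelles or cells and more RNA per organelle or cell cannot be told apart.

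The plastid genome, summed over its 47 loci, had 118, 93.6 and 91.6 FPKM in dek42 replicates 1, 2 and 3, against 53.6 and 58.2 FPKM in wild-type replicates 1 and 3. As deposited the groups did not overlap, at 101 ± 14.7 FPKM in dek42 (SD, n = 3) and 55.9 ± 3.28 FPKM in wild type (SD, n = 2), a ratio of 1.81 (exact permutation p of 0.1). After median-ratio scaling the sums were 105, 73.9 and 74.7 in dek42 and 68.0 and 76.7 in wild type. There the groups overlapped, the ratio of means was 1.17 and the exact permutation p was 0.6. For the sum over all 47 loci, the plastid difference as deposited was therefore within the spread between libraries once they were scaled. That spread rests in part on short rows. The rpl33 row (201 bases) gave 35.2 of the scaled sum in wild-type replicate 3 and 13.9 in dek42 replicate 2, and was listed at 0 elsewhere. The rps15 row gave 13.6 in wild-type replicate 3 and 10.8 and 3.74 in dek42 replicates 1 and 2. It was listed at 0 in dek42 replicate 3 and wild-type replicate 1. The longer row holding ZemaCp066 gave 36.4, 14.8 and 18.6 in dek42 and 29.0 and 9.32 in wild type. Scaled sums without these rows were not compared. Mitochondrial over plastid FPKM was 1.23, 2.29 and 1.67 in dek42 and 1.02 and 0.661 in wild type. Each dek42 library was above both wild-type libraries in this ratio, and its exact permutation p was 0.2. In wild-type replicate 3 the rpl33 row alone was 45.9% of the plastid sum as deposited, so the ratio of 0.661 there rests heavily on that row.

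**Figure D2:**
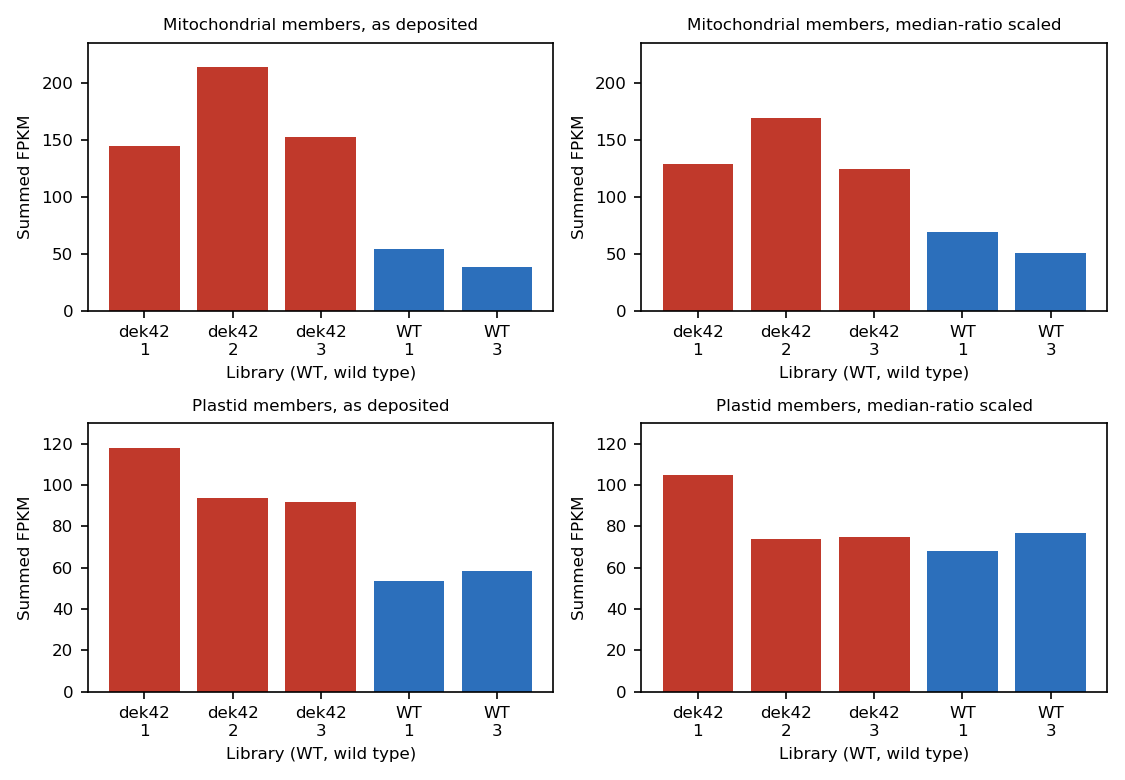
Summed FPKM (vertical axis) of the 53 mitochondrial loci (top) and the 47 plastid loci (bottom) in each library (horizontal axis), as deposited (left) and after median-ratio scaling (right); each bar is 1 library. The mitochondrial bars of dek42 stand above both wild-type bars on both scales, and the plastid bars overlap after scaling.

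Single loci were compared with limma on log2(FPKM + 1), fitted over all 20327 loci that reached 1 FPKM in at least 2 libraries, with Benjamini-Hochberg adjustment over all of them. Changes are dek42 minus wild type on that log2 scale, which understates the change of low loci. As deposited, 39.2% of all loci tested were higher in dek42 and 2.29% lower, and the median change was 0.54. After median-ratio scaling, 8.03% were higher and 8.26% lower of 20058 loci, and the median change was 0.01.

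Of the 32 mitochondrial loci tested, 16 rose and none fell in dek42 as deposited (adjusted p under 0.05 by limma). At an unadjusted p under 0.05 there were 18. Among the tested loci, 20 reached the filter only through the dek42 libraries, with both wild-type libraries under 1 FPKM, and they gave 12 of the 16 rises. The filter takes such a locus for its dek42 values, so its rise is not independent of the filter. The other 12 loci gave 4 rises and a median change of 0.66, against 1.07 over all 32. After median-ratio scaling 8 of 29 tested rose and none fell, and all 8 were among the 16. Of these 8, 5 (nad6, rps12, orf133-b, the orf127 row and the row without a gene) were at loci with both scaled wild-type libraries under 1 FPKM. The 13 loci with a wild-type library at 1 FPKM or more gave the other 3 (orf396 with orf342, cox2 and rps2A), with a median change of 0.36, against 0.92 over all 29. The other 21 loci were not tested, and none of them exceeded 1.92 FPKM in any library. Over all 53 loci, whether tested or not, every dek42 library lay above both wild-type libraries at 27 and below both at none, against 52.2% and 5.19% of all loci so chosen, so the share of non-overlapping loci was near the background.

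Among the plastid loci 19 were tested, of which 5 rose and none fell as deposited, with 7 at an unadjusted p under 0.05. Of these 19, 7 reached the filter only through dek42 and gave 2 of the rises, and the other 12 gave 3, with a median change of 0.53, against 0.73 over all 19. After median-ratio scaling 2 of 17 rose and none fell, and both were among the 5. Of these 2, rps16 passed the filter only through dek42. The 12 loci with a scaled wild-type library at 1 FPKM or more gave 1 rise, the rps19 row, and a median change of 0.20, against 0.43 over all 17. The share that rose as deposited, 26.3%, was below the 39.2% of the whole table. Of the 28 plastid loci not tested, none exceeded 2.80 FPKM in any library. Without overlap, dek42 was above wild type at 24 of the 47 plastid loci and below at none, which for the higher side is again near the 52.2% of all loci so chosen (5.19% were below).

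The calls were not equally stable when 1 library at a time was left out. As deposited, 7 of the 16 mitochondrial and 2 of the 5 plastid rises passed (limma adjusted p under 0.05) in all 5 such fits. They were the rows of orf396 with orf342, cox2, orf127 and no annotated gene together with rps2A, rps12 and orf133-b on Mt, and the rows of rps19 and rps16 on Pt. Of these, the orf127 row, the row without a gene, rps12, orf133-b and rps16 passed the filter only through dek42, so their stability is not independent of it either. After median-ratio scaling 3 mitochondrial calls (orf396 with orf342, cox2 and the row without a gene) and 1 plastid call (rps19) passed in all 5. The calls of rps2A, rps12 and the orf127 row after scaling each missed the threshold without wild-type replicate 1 and in 1 or 2 other fits, with adjusted p up to 0.080, 0.059 and 0.077. After scaling, rps16 passed in none of the 5 (adjusted p up to 0.11) and nad6 in 1 (up to 0.15). orf133-b reached the filter in 2 of the 5 and passed in neither (up to 0.095).

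**Figure D3:**
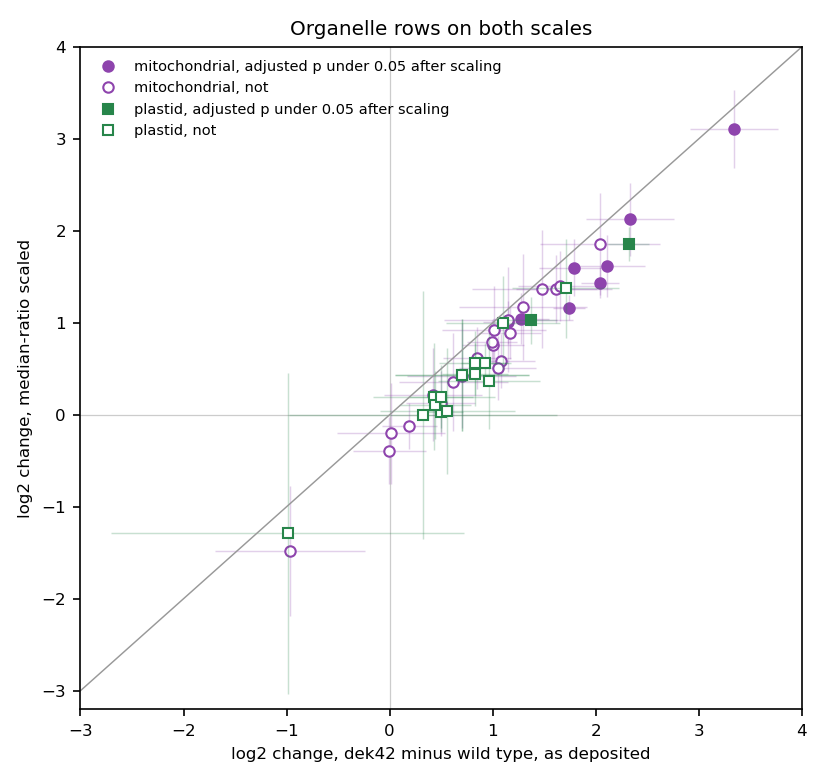
Change of each organelle locus tested on both scales, as log2(FPKM + 1) in dek42 minus wild type, as deposited (horizontal axis) and after median-ratio scaling (vertical axis); bars are standard errors and the diagonal marks equal values. Of the 29 mitochondrial loci, 8 are filled (adjusted p under 0.05 after scaling), as are 2 of the 17 plastid loci, and nearly all points lie below the diagonal.

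The mitochondrial locus with the most signal lay at Mt:21090-22698 (1609 bases) and holds the open reading frames orf396 and orf342, whose protein products have no role given here. It had 45.3, 57.6 and 49.8 FPKM in dek42 replicates 1, 2 and 3, against 13.6 and 9.76 FPKM in wild-type replicates 1 and 3. All dek42 libraries were far above both wild-type libraries, and its mean was 4.36 times higher in dek42. It rose by 2.04 ± 0.19 (SE) on the log2 scale (limma adjusted p = 0.0015) and by 1.44 after median-ratio scaling (adjusted p = 0.0073). It alone made up 31.2%, 26.8% and 32.6% of the mitochondrial sum in dek42 and 24.9% and 25.3% in wild type.

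Respiratory chain loci came next, led by cox2, which encodes a core subunit of cytochrome c oxidase (complex IV). Its row, Mt:541369-545055, is 3687 bases long and extends past the annotated gene. It had 19.99, 22.6 and 23.7 FPKM in dek42, against 6.20 and 5.58 FPKM in wild type, so the groups were well apart and each was tight. The mean was 22.1 ± 1.9 FPKM in dek42 (SD, n = 3) and 5.89 ± 0.44 FPKM in wild type (SD, n = 2), with a change of 1.74 ± 0.16 (SE, limma adjusted p = 0.0015) as deposited and 1.17 after median-ratio scaling (adjusted p = 0.0078). The other complex IV locus, holding cox3, had 0.227, 1.1 and 1.23 FPKM in dek42 and 0.238 and 0.668 FPKM in wild type, and the groups overlapped (adjusted p = 0.48).

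For complex I, the NADH dehydrogenase at the entry of the chain, 6 loci were members, 5 were tested and 2 rose, a share close to the 39.2% of the whole table, and both that rose passed the filter only through dek42. nad6, Mt:565003-565665, had 1.56, 2.32 and 1.71 FPKM in dek42, against 0 and 0.379 FPKM in wild type. Its change was 1.28 ± 0.27 (SE, limma adjusted p = 0.013) and 1.05 after median-ratio scaling (adjusted p = 0.049). nad4, Mt:76132-84976, had 1.08, 1.89 and 0.701 FPKM in dek42 and 0.0428 and 0.123 FPKM in wild type. It rose by 1.00 ± 0.30 (adjusted p = 0.038), was under the filter after scaling, and passed in 1 of the 3 fits with a library left out in which it reached the filter (adjusted p up to 0.13). At both genes every dek42 library was above both wild-type libraries. nad3 and nad9 overlapped between groups, with 2.91, 1.93 and 0.554 FPKM in dek42 and 0 and 1.59 FPKM in wild type for nad3, and adjusted p of 0.31 and 0.50. A 294-base row that covers the end of nad2 was listed at 3.89, 0 and 3.47 FPKM in dek42 and at 0 in both wild-type libraries (adjusted p = 0.12).

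The remaining energy genes showed no called change. The ATP synthase subunit genes atp4 and atp8 changed by 0.02 and 0.19 (limma adjusted p of 0.98 and 0.58), with overlapping groups at both. atp8, in the row Mt:232091-233200, had 1.02, 1.62 and 0.794 FPKM in dek42 and 0.941 and 0.771 FPKM in wild type, a ratio of 1.34. Both changes turned negative after scaling, at -0.20 and -0.12. cob, the mitochondrial subunit of complex III, ccmC and ccmFN of cytochrome c maturation, and mat-r, a maturase gene linked to intron splicing, were all too low to be tested. mat-r had 0.217, 0.890 and 0.580 FPKM in dek42 and 0.139 and 0.134 FPKM in wild type, without overlap, whereas cob, ccmC and ccmFN overlapped.

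Mitochondrial ribosomal protein genes gave 5 members, of which 4 were tested and 2 rose, both also after scaling (whole-table shares of 39.2% and 8.03%). Of the 2, rps12 passed the filter only through dek42. rps2A, Mt:479553-481148, for a protein of the small subunit, had 7.02, 19.1 and 9.97 FPKM in dek42, against 1.88 and 1.73 FPKM in wild type. Its wild-type values were close together while the dek42 values ranged widely above them, and the ratio of means was 6.66. The change was 2.11 ± 0.38 (SE, limma adjusted p = 0.0075) and 1.62 after scaling (adjusted p = 0.027). rps12, Mt:262384-262761, was listed at 3.36, 7.89 and 2.31 FPKM in dek42 and at 0 in both wild-type libraries (change 2.33 ± 0.42, adjusted p = 0.0079, and 2.13 after scaling, adjusted p = 0.021). rps7 was listed at 2.07, 3.81 and 0 FPKM in dek42 and at 0 in both wild-type libraries (adjusted p = 0.13), and rps13 had an adjusted p of 0.11. rps4 was not tested. A row at Mt:63562-64041 that holds orf127 and a short stretch annotated as part of rps3 was listed at 1.37, 3.71 and 2.71 FPKM in dek42 and at 0 in both wild-type libraries. It rose by 1.79 ± 0.33 (limma adjusted p = 0.0086) and by 1.60 after scaling (adjusted p = 0.022), and it too passed the filter only through dek42.

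Open reading frames without a named product were the most numerous class, with 23 members, 13 tested, 8 risen as deposited (whole-table share 39.2%) and 2 risen after median-ratio scaling (whole-table share 8.03%). Of the 8, 6 passed the filter only through dek42. They were orf133-b, orf158-a1, orf158-a2, orf105-c and the rows of orf1159 and of trnD-a2, trnN-a2-ct and orf101-b. Besides the orf396 and orf342 row, the second was orf133-b, Mt:388671-389072, listed at 1.19, 1.29 and 1.16 FPKM in dek42 and at 0 in both wild-type libraries (change 1.15, limma adjusted p = 0.011, and 1.00 after scaling, adjusted p = 0.037). orf140-b had 4.11, 6.29 and 9.73 FPKM in dek42 and 2.39 and 2.56 FPKM in wild type. Its dek42 libraries all lay above the wild-type pair, and its change of 1.09 (adjusted p = 0.035) was 0.58 after scaling (adjusted p = 0.20) and passed in 1 of the 5 fits without a library. orf147-b had 5.12, 13.9 and 9.49 FPKM in dek42 and 3.11 and 4.52 FPKM in wild type. It did not pass on either scale (changes of 1.05 and 0.51, limma adjusted p of 0.063 and 0.33). Its groups did not overlap as deposited, but after scaling 4.55 in dek42 replicate 1 was below 5.96 in wild-type replicate 3. The row of orf1159, a long reading frame, had 1.15, 1.56 and 1.20 FPKM in dek42 and 0.103 and 0.200 FPKM in wild type, apart in all libraries (adjusted p = 0.019, and 0.067 after scaling). The row of trnD-a2, trnN-a2-ct and orf101-b also rose as deposited (1.01, adjusted p = 0.036) and not after scaling (0.76, adjusted p = 0.11). The lowest change in this class was at the row holding orf125, which had 2.51, 1.1 and 1.59 FPKM in dek42 and 2.62 and 0.988 FPKM in wild type (adjusted p = 0.99). There the 2 wild-type libraries enclosed all dek42 libraries.

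Few mitochondrial loci fell outside the gene classes above. A 227-base row with no annotated gene, Mt:74874-75100, was listed at 11.7, 13.8 and 4.54 FPKM in dek42 and at 0 in both wild-type libraries. It had the largest log2 change of the genome as deposited, 3.34 ± 0.43 (SE, limma adjusted p = 0.0029), and 3.11 after scaling (adjusted p = 0.0099). It has the shortest span among the mitochondrial members. The row that holds trnN-a1-ct and trnD-a1, transfer RNA genes, had 1.30, 2.92 and 1.87 FPKM in dek42 and 0.199 and 0.450 FPKM in wild type. It rose as deposited (limma adjusted p = 0.023) but not after scaling (adjusted p = 0.076). Both rows passed the filter only through dek42, so their rises are not independent of it.

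Mitochondrial protein and reading-frame loci of plastid origin, marked ct in their names, gave no call. Of 5 members 3 were tested and none rose or fell. orf109-b-ct, Mt:348199-348528, had 1.56, 7.46 and 2.18 FPKM in dek42, against 16.0 and 2.80 FPKM in wild type. The groups overlapped, with wild-type replicate 1 far above all others, and the change was -0.97 ± 0.73 (SE, limma adjusted p = 0.31) as deposited and -1.48 after scaling (adjusted p = 0.19). This locus made up 29.3% of the mitochondrial sum in wild-type replicate 1 and at most 7.27% in any other library. In all 3 plastid-derived loci that were above 0 in every library, wild-type replicate 1 exceeded wild-type replicate 3, by a median ratio of 5.01. Such sequences have near copies in the plastid genome, and the treatment of reads shared between copies is not stated.

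**Figure D4:**
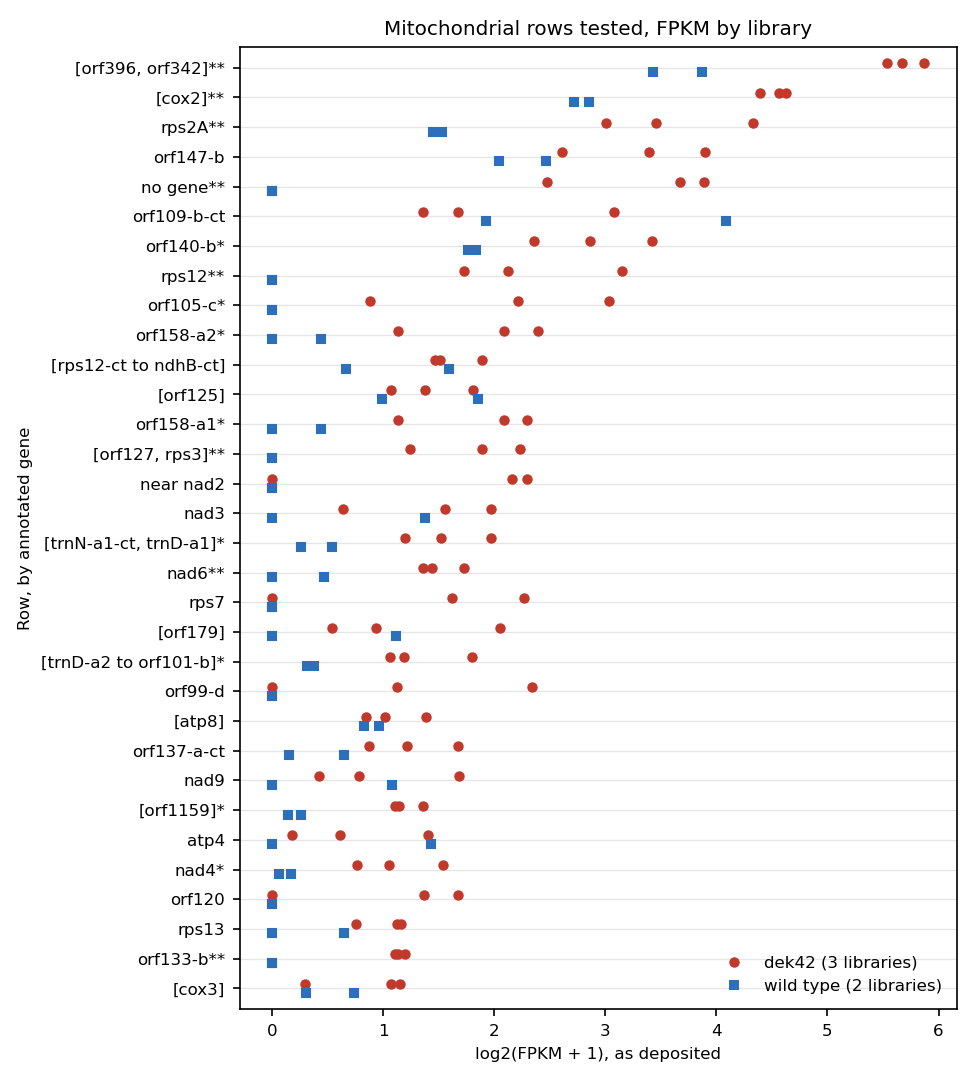
FPKM of the 32 mitochondrial loci tested, as log2(FPKM + 1) as deposited (horizontal axis), ordered by mean; each point is 1 library. Square brackets mark rows that hold the genes named, 1 star marks adjusted p under 0.05 as deposited and 2 stars also after median-ratio scaling. The 3 dek42 points of the cox2 row lie close together above the 2 wild-type points, while those of orf109-b-ct are mixed with them.

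Genes of the plastid ribosome were the most numerous plastid class, with 13 members, 10 tested, 4 rises as deposited and 2 after scaling. The 4 of 10 is close to the whole-table share of 39.2%. Of the 4, 2 (the rows of rps16 and of rps3 with rpl22) passed the filter only through dek42. After scaling the whole-table share was 8.03%. The row holding rps19 in the second inverted repeat, Pt:140068-140361, had 10.4, 11.9 and 10.4 FPKM in dek42, against 1.65 and 1.13 FPKM in wild type. It was tight in both groups and wide apart between them, at 10.9 ± 0.88 FPKM in dek42 (SD, n = 3) and 1.39 ± 0.36 FPKM in wild type (SD, n = 2). Its ratio of means, 7.83, was the largest of the plastid loci with no library at 0. The change was 2.32 ± 0.20 (SE, limma adjusted p = 0.0014) and 1.85 after scaling (adjusted p = 0.0058). This row lies in the inverted repeat, and a mitochondrial row holds the plastid-derived rps19-ct. The treatment of reads shared between such copies is not stated. rps16, in the row Pt:3363-5604, had 4.11, 2.65 and 3.06 FPKM in dek42 and 0.702 and 0.558 FPKM in wild type. It rose by 1.38 ± 0.24 (adjusted p = 0.0074) and by 1.03 after scaling (adjusted p = 0.041), again with every dek42 library above both wild-type libraries.

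Further ribosomal protein loci of the plastid passed the test as deposited only. rps18, Pt:67532-68044, was listed at 1.92, 4.98 and 6.60 FPKM in dek42 and at 0 and 1.43 FPKM in wild type (change 1.71, limma adjusted p = 0.038, and 1.38 after scaling, adjusted p = 0.12). The row holding rps3 and rpl22 had 1.73, 1.01 and 0.767 FPKM in dek42 and 0.184 and 0.175 FPKM in wild type (change 0.85, adjusted p = 0.049), was under the filter after scaling and passed in none of the 3 fits with a library left out in which it reached the filter. A row of 3893 bases, from psaJ through rpl33, rps18, rpl20 and clpP to rps12, had 2.39, 2.51 and 2.64 FPKM in dek42 and 1.07 and 0.647 FPKM in wild type. It rose by 0.93 (adjusted p = 0.020) and did not pass after scaling (0.56, adjusted p = 0.13). psaJ belongs to photosystem I and clpP to a protease, so this row mixes functions. The rps18 row (513 bases) and the rpl33 row (201 bases) lie wholly inside it. The rises of rps18 and of the long row therefore share sequence, and the plastid sums include both rows.

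Several of the most abundant plastid loci varied as much within a genotype as between genotypes. The row holding ZemaCp066, Pt:83036-83803, lies inside the first copy of rpl2, a large-subunit gene, and had 40.9, 18.8 and 22.9 FPKM in dek42 and 22.8 and 7.07 FPKM in wild type. Its groups overlapped (change 0.96 ± 0.50, limma adjusted p = 0.16). rpl2 in the second repeat, Pt:138323-139807, had 11.7, 6.64 and 6.21 FPKM in dek42 and 12.7 and 1.64 FPKM in wild type, with wild-type replicate 1 the highest of all and wild-type replicate 3 the lowest (adjusted p = 0.50). Without wild-type replicate 1 its change was 1.75 and passed, and without wild-type replicate 3 it was -0.62. rpl33, only 201 bases long, was listed above 0 in a single library of each genotype, at 17.7 FPKM in dek42 replicate 2 and 26.7 FPKM in wild-type replicate 3, where it was 45.9% of the plastid sum (change -0.99 ± 1.71, adjusted p = 0.66). The row of rps15 was similar, listed at 12.1, 4.74 and 0 FPKM in dek42 and at 0 and 10.4 FPKM in wild type. Its change was 0.32 ± 1.30 (adjusted p = 0.85) as deposited and lay below 0 by 0.0030 in size after scaling.

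The rows used here for the plastid RNA polymerase and for photosynthesis were close to the lower end of the scale. Genes touched by no row, psaA, psaB, psbA and atpA among them, are not covered. Among the 4 rows with rpo genes, which encode the core of the plastid-encoded RNA polymerase, rpoA was the highest. It had 2.12, 0.679 and 2.26 FPKM in dek42 and 0.562 and 0.346 FPKM in wild type (limma adjusted p = 0.097), without overlap as deposited. After scaling, 0.536 in dek42 replicate 2 was below 0.712 in wild-type replicate 1. For the NDH complex, which passes electrons back into the photosynthetic chain, 1 of 10 members was tested, ndhI, with 0.379, 1.00 and 1.14 FPKM in dek42 and 0 and 0.182 FPKM in wild type (adjusted p = 0.088). No locus of photosystem II, cytochrome b6f, the plastid ATP synthase or Rubisco was tested. rbcL, for the large subunit of Rubisco, had 0.246, 0.165 and 0.0799 FPKM in dek42 and 0.0282 and 0.0743 FPKM in wild type, all under 1 FPKM. Its groups did not overlap as deposited, where dek42 was likewise above at 52.2% of all loci so chosen. After scaling, 0.0652 in dek42 replicate 3 was below 0.0978 in wild-type replicate 3. matK, a maturase of plastid introns, had 3.61, 2.16 and 2.82 FPKM in dek42 and 1.87 and 0.621 FPKM in wild type, and did not pass (adjusted p = 0.077). The row of trnfM, trnG and ZemaCp010 had 4.31, 3.45 and 3.13 FPKM in dek42 and 2.32 and 2.2 FPKM in wild type. As deposited it was above wild type in all dek42 libraries, with a change of 0.50 (limma adjusted p = 0.10) that was 0.03 after scaling.

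**Figure D5:**
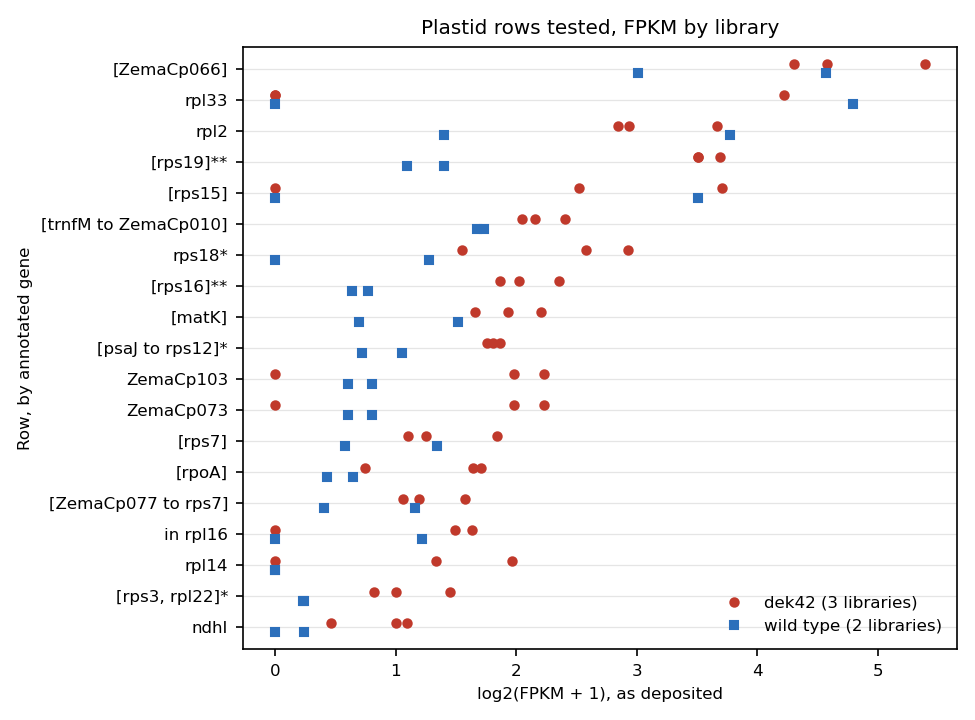
FPKM of the 19 plastid loci tested, as log2(FPKM + 1) as deposited (horizontal axis), ordered by mean; each point is 1 library. Square brackets mark rows that hold the genes named, 1 star marks adjusted p under 0.05 as deposited and 2 stars also after median-ratio scaling. The row of rps19 has its 3 dek42 points at one place above both wild-type points, and rpl33 and rps15 have points at 0 in both groups.

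Copies and overlaps limit how far single rows can be read. In the inverted repeat of the plastid genome, 3 pairs of members had the same value in every library, namely ndhB with its copy, ZemaCp073 with ZemaCp103 and ZemaCp074 with ZemaCp102, and on Mt the rows of orf193-a1 and orf193-a2 did so too. These pairs are therefore 1 measurement each. orf158-a1 and orf158-a2, which both rose as deposited (limma adjusted p of 0.019 and 0.020), were equal in 4 libraries and differed in dek42 replicate 2 alone, at 3.90 and 4.26 FPKM. They did not pass after scaling (adjusted p of 0.051 and 0.053). On Pt, 17 members overlapped another, in 13 pairs, chiefly through a row of 38215 bases that spans ndhF, ndhD, ndhE, ndhG, ndhI, ndhA, ndhH and rps15. That long row had 1.97, 1.09 and 1.29 FPKM in dek42 and 1.24 and 0.321 FPKM in wild type, with overlapping groups (adjusted p = 0.24). On Mt, 4 members overlapped in 2 pairs. In 1 of them, orf105-c, listed at 3.64, 7.21 and 0.837 FPKM in dek42 and at 0 in both wild-type libraries, lies within the row of nad5, which had at most 0.870 FPKM. orf105-c rose as deposited (change 2.04 ± 0.58, limma adjusted p = 0.032) and did not pass after scaling (adjusted p = 0.066). It passed in 1 of the 3 fits with a library left out in which it reached the filter. Like orf158-a1 and orf158-a2, it passed the filter only through dek42.

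The highest library differed between the genomes. Over the 53 mitochondrial loci, dek42 replicate 2 was highest at 30, dek42 replicate 1 at 12, dek42 replicate 3 at 7, wild-type replicate 1 at 4 and wild-type replicate 3 at none. Over the 47 plastid loci, dek42 replicate 3 was highest at 20, dek42 replicate 1 at 16, dek42 replicate 2 at 7, wild-type replicate 1 at 3 and wild-type replicate 3 at 1. The wild-type libraries differed from each other as well. Wild-type replicate 1 exceeded wild-type replicate 3 at 18 of the 22 plastid loci above 0 in every library (median ratio 1.54), at 13 of 20 mitochondrial loci (1.17), and by a median ratio of 1.04 over 22441 other loci. Over these same loci, the median ratio of the dek42 mean to the wild-type mean was 4.18 on Mt, 2.07 on Pt and 1.55 elsewhere, on the deposited scale, as a description with no test.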

How the data were processed

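RNA libraries of pooled kernels were grouped by genotype from the sample titles. The values deposited by the authors are FPKM per library, per the file headers. The submitters' processing notes list TopHat2 2.1.0, Cufflinks 2.2.1 and the build B73 RefGen_v4 but give no settings. Strand handling, multiply mapped reads and read depth are not stated, and the handling of strand or shared reads could move values between copies or overlapping rows. Each file had 45764 rows, and 14 spans listed as 2 rows, all at 0, were left out. limma 3.58.1 in R 4.3.3 (lmFit, eBayes with a trend) was run two-sided on log2(FPKM + 1) over loci with 1 FPKM in at least 2 libraries, with genotype as the only term, Benjamini-Hochberg adjustment and a threshold of 0.05, as deposited and after median-ratio scaling. Median-ratio factors were 1.12, 1.27 and 1.23 in dek42 and 0.789 and 0.759 in wild type. Sums were compared by exact two-sided permutation over 10 splits.

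Loci named were, per genome, the 8 with the highest mean, all called after scaling, the 3 largest called changes, the 2 lowest changes, and overlapping or equal-span loci. Other loci were named after their values were seen, as members of gene groups. The members and lists were chosen with earlier results of these data known. In data simulated for this comparison over 20327 loci, 33% of 100 loci changed by 1 and 71% of 100 changed by 2 (log2) were recovered, with 3 false calls. The changed loci were drawn only from those with a mean log2(FPKM + 1) above 2, and no shift over all loci was simulated. These figures therefore do not describe loci near 1 FPKM, where most organelle loci lie. Alternatives were other scalings, pseudocounts and filters, a replicate block and leaving out each library. No sequences were used.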

Additional observations from a re-analysis of the deposited data

Results flagged for a closer look

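Some organelle rows were above 0 FPKM in a single library and so were not among the loci described. On Mt there were 4, 12 and 7 such rows in dek42 replicates 1, 2 and 3, none in wild-type replicate 1 and 2 in wild-type replicate 3, and on Pt there was 1, in dek42 replicate 2. The same count over all other loci is not given here. Both wild-type libraries also listed fewer of the other loci above 0, and there are 3 dek42 libraries against 2. The highest was a 160-base mitochondrial row with no annotated gene, Mt:474241-474400, listed at 250.3 FPKM in dek42 replicate 3 and at 0 in the other 4 libraries. A neighbouring row, Mt:474614-474845, was listed at 1.98 FPKM in the same library alone. With these rows the mitochondrial sum was 148, 232 and 407 FPKM in dek42 and 54.6 and 39.4 FPKM in wild type, with an exact permutation p of 0.2. In dek42 replicate 2 alone, orf122 was listed at 4.0 FPKM, orf99-f at 2.70, orf129-a at 1.90 and orf105-e at 1.03. The copies orf106-a1 and orf106-a2 were listed at 2.96 FPKM each, and the plastid ZemaCp111 at 3.67, also in dek42 replicate 2 alone. All of these were picked as above 0 in a single library, here a dek42 one. Their 0 in both wild-type libraries follows from that choice. No replicate checks them, and their source was not tested.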

How the results depend on the processing

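Depth is unknown, and most loci lie near 1 FPKM, where the filter decides what is tested. Against 16 mitochondrial and 5 plastid calls as deposited, median-ratio scaling gave 8 and 2 (also with loci chosen on deposited FPKM), quantile normalization 7 and 1, rescaling without the 50 most abundant loci 7 and 2, a filter of 5 FPKM 5 and 1 (fewer loci tested), and no filter with median-ratio scaling 7 and 1. The choices of loci under median-ratio scaling and the sums over all rows were added after seeing the data. Other pseudocounts, no filter and no trend stayed within 1.5 times. The replicate block gave 11 and 7, and with median-ratio scaling 1 and 1. Deviations of same-numbered libraries from their group means correlated at 0.0057 and -0.015. With 2 wild-type libraries, their deviations mirror each other, so these correlations cannot show whether libraries of the same number were handled together. The labels state no pairing. Leaving out 1 library gave 7 (without wild-type replicate 1) to 15 mitochondrial calls (10 without wild-type replicate 3), and from 2 plastid calls, leaving out dek42 replicate 3, to 7 (3 without wild-type replicate 3). With scaling as well, there were 7, 6, 6, 3 and 7 mitochondrial calls leaving out dek42 replicates 1, 2 and 3 and wild-type replicates 1 and 3, and 1 or 2 plastid calls. Without wild-type replicate 3 and with scaling, orf109-b-ct was 1 of the 7 and was lower. The mitochondrial and the plastid sums both kept their direction in every setting run. The plastid difference was 45.1 FPKM as deposited and 1.96 with scaling and no dek42 replicate 1. Of the changes of named loci, 326 values stayed on their side of the threshold, 68 lost and 5 gained it, and 26 changed sign, none of them at a locus called as deposited; the cause was not tested. The orf125 row changed by 0.020 and 0.0043 with pseudocounts of 0.1 and 0.5 and 0.17 with the replicate block; with 1 library left out it ranged from -0.44 to 0.43, and was 0.050 with scaling and no wild-type replicate 1. orf109-b-ct ranged from -2.05 (no wild-type replicate 3) to 0.11 (no wild-type replicate 1). The trnfM row was -0.065 by quantile normalization and -0.11 with scaling and no dek42 replicate 1, and the ZemaCp066 row -0.40 with scaling and no wild-type replicate 3. The rps15 row was -0.0030 after scaling (also with other choices of loci), -0.0097 by quantile normalization, -0.085 without the 50 most abundant loci and -0.16 with block and scaling. Leaving out 1 library, it ranged from -1.43 to 2.08, and with scaling it was -0.81, -0.16 and 0.94 without dek42 replicates 1, 2 and 3 and -1.99 and 1.99 without wild-type replicates 1 and 3. rpl2 was -0.0023 by quantile normalization, -0.62 to 1.75 with 1 library left out, and with scaling -0.26 (no dek42 replicate 1) and -1.18 (no wild-type replicate 3).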
